A study of Saccharomyces cerevisiae with 18 samples.

Results

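Transcripts of a yeast strain that overproduced the protein phosphatase Ppz1 were compared with those of wild type cells 2 h after galactose was added. The 6 libraries of that time, of 18 in the series, were chosen by the strain and the time in their library names, and all genes of the count tables were compared. Wild type was BY4741, a haploid laboratory strain of mating type a, and ZCZ01 was its derivative in which the GAL1-10 promoter drives PPZ1, as the GAL1:PPZ1 genotype of the labels says. Both strains were grown on YPD, moved to medium with raffinose and given galactose at 2% when the cultures reached an OD600 of about 0.6, so the controls received galactose too. Samples were taken at 0.5, 2 and 4 h in 3 experiments, and each table held the 6 libraries of 1 experiment. RNA was read by QuantSeq, which primes on the poly(A) tail and reads only the 3′ end of each transcript, so levels are given as CPM, counts scaled to a library of 1000000, and were not divided by gene length. ZCZ01 is treated here as 1 strain, since the labels name no second clone. The sample titles disagreed with the library names on the time of 12 libraries out of 18, and the latter were followed.

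Ppz1 is a serine/threonine phosphatase found only in fungi. Its activity is held down by the regulatory subunits Hal3 (the SIS2 product) and Vhs3. It counteracts potassium uptake through the Trk transporters and represses ENA1, a sodium pump gene. The higher salt tolerance of cells without it has been attributed to both. An excess of Ppz1 is among the most toxic overexpressions known in budding yeast and slows cells near the start of DNA synthesis. Budding yeast meets many stresses with a shared programme in which Msn2 and Msn4 switch on protective genes while genes for ribosomes and growth are lowered.

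The 6 libraries held 1215608 to 1899369 counts, against 955972 to 1920193 over all 18, and the total of ZCZ01 was 1.02, 0.957 and 0.959 times that of wild type in experiments 1, 2 and 3. The 10 most abundant genes took 9.84 to 11.8% of the counts. LEU2 and MET17, which BY4741 lacks, had 0 counts in all 6 libraries. URA3, also deleted in BY4741, had 20 to 27 counts in the wild type libraries and 0 to 4 in ZCZ01, and the partly deleted HIS3 had 59 to 103 counts in wild type and 155 to 253 in ZCZ01. Experiments 2 and 3 were much closer to each other than to experiment 1. Their counts differed with a chi-square of 1.53 per degree of freedom in wild type and 2.60 in ZCZ01, against 22.4 to 40.7 for pairs with experiment 1. The labels do not say whether these 2 experiments came from separate cultures, so p-values measure the spread between these libraries and may be too small. Counts of calls are therefore also given with experiments 2 and 3 summed.

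At 2 h the transcript level of 2392 of 5658 genes tested (42.3%) differed between the strains in edgeR's quasi-likelihood test at a Benjamini-Hochberg adjusted p under 0.05. Of these, 1079 (19.1%) were higher in ZCZ01 and 1313 (23.2%) were lower. A change of at least 2-fold was met by 607 genes (10.7%) that were higher and 549 (9.7%) that were lower, 20.4% together. The larger changes were mostly upward. At least 4-fold changes numbered 195 higher and 88 lower, at least 8-fold changes 72 and 20, and at least 32-fold changes 12 and 0. The log2 ratios of experiments 1 and 2, 1 and 3, and 2 and 3 correlated across genes at 0.624, 0.661 and 0.803. All 3 experiments had the same sign for 1028 of the 1079 higher genes and for 1288 of the 1313 lower ones. The 3 ZCZ01 libraries lay outside the range of the 3 wild type libraries for 895 and 1090 of them. Over all genes tested they lay above that range for 1159 (20.5%) and below it for 1338 (23.6%). The same libraries gave the calls, so these counts are no separate check of them. With experiments 2 and 3 summed, 640 genes were higher and 726 lower. Leaving out experiment 1 gave 1519 and 1565, leaving out experiment 2 gave 594 and 708, and leaving out experiment 3 gave 522 and 646. The fit without experiment 1 had a common dispersion of 0.00106, against 0.03 in the fit of all libraries and 0.0414 and 0.0438 without experiments 2 and 3, so its calls measure only the small spread between experiments 2 and 3. Scaling by total counts alone gave 1340 higher and 1013 lower, so that 57.0% of the calls were higher in place of 45.1%. The median gene had a log2 fold change of -0.05, and total count and upper quartile scaling moved it up by 0.14 and 0.11. Each library came from a whole culture, and fewer cells of one kind cannot be told apart from less RNA per cell.

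PPZ1 itself stood at 10.7, 6.26 and 6.46 CPM in wild type and 89.4, 393 and 457 CPM in ZCZ01 in experiments 1, 2 and 3, an order kept for all values below. Every ZCZ01 library lay far above every wild type library, in the direction the labels give. The fitted log2 fold change was 5.08 ± 0.53 (standard error; edgeR adjusted p = 7.3e-06), and 6.09 without experiment 1. PPZ1 in ZCZ01 was uneven over time between experiments. Experiment 1 had 834, 164 and 38 counts at 0.5, 2 and 4 h, highest at 0.5 h, whereas experiments 2 and 3 were highest at 2 h, with 169, 529 and 143 and with 226, 809 and 174 counts. Among the genes for Ppz1's partners, VHS3 rose by 0.84 on the log2 scale and YPI1, which encodes an inhibitor of the related phosphatase Glc7, by 0.80. CAB3, whose product joins Hal3 and Vhs3 in a coenzyme A synthesis enzyme, fell (-1.07), and SIS2, the Hal3 gene, did not pass the test (-0.57, edgeR adjusted p = 0.0709). PPZ2, the paralog of PPZ1, had 34.6, 25.8 and 24.1 CPM in wild type and 61.1, 40.1 and 38.4 CPM in ZCZ01 and a log2 fold change of 0.72 ± 0.19 (edgeR adjusted p = 0.00772), with no overlap between the strains. Of these 6 genes 4 were thus higher and 1 lower, against 19.1% and 23.2% of all genes tested. The 4 include PPZ1 itself, whose rise was set by the construct, so the share of higher genes is no result about its partners. Leaving out experiment 1, 2 or 3, or summing experiments 2 and 3, gave 4, 1, 2 and 3 higher for this list, each count including PPZ1. The call was lost without experiment 2 for VHS3 (0.90), YPI1 (0.74), CAB3 (-0.97) and PPZ2 (0.78), with experiments 2 and 3 summed for YPI1 (0.81) and without experiment 3 for YPI1 (0.88) and PPZ2 (0.78).

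The galactose genes, which share the activator Gal4 with the PPZ1 construct, did not move as a group. The galactose permease gene GAL2 had 8177, 7449 and 7182 CPM in wild type and 1603, 1881 and 1804 CPM in ZCZ01, lower in all ZCZ01 libraries, with a log2 fold change of -2.11 ± 0.13 (edgeR adjusted p = 3.2e-08). Also lower were GAL10 (epimerase, -0.68) and GAL3 (the galactose sensor, -0.87). The genes GAL1 (galactokinase, -0.13), GAL7 (uridylyltransferase, 0.41), GAL80 (the repressor, -0.23) and GAL4 (the activator, -0.57) did not pass. Of the 7 genes none rose, 3 fell and 4 did not pass. GAL7 went opposite ways, with log2 ratios of -0.92, 1.08 and 1.00 in experiments 1, 2 and 3, and passed as higher without experiment 1, when 1 gene was higher and 4 were lower. GAL1 and GAL10 overlap the non-coding gene YNCB0008W, and the strand setting used in counting is not stated. A pass was missed without experiment 3 for GAL3 (-0.71).

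**Figure D1:**
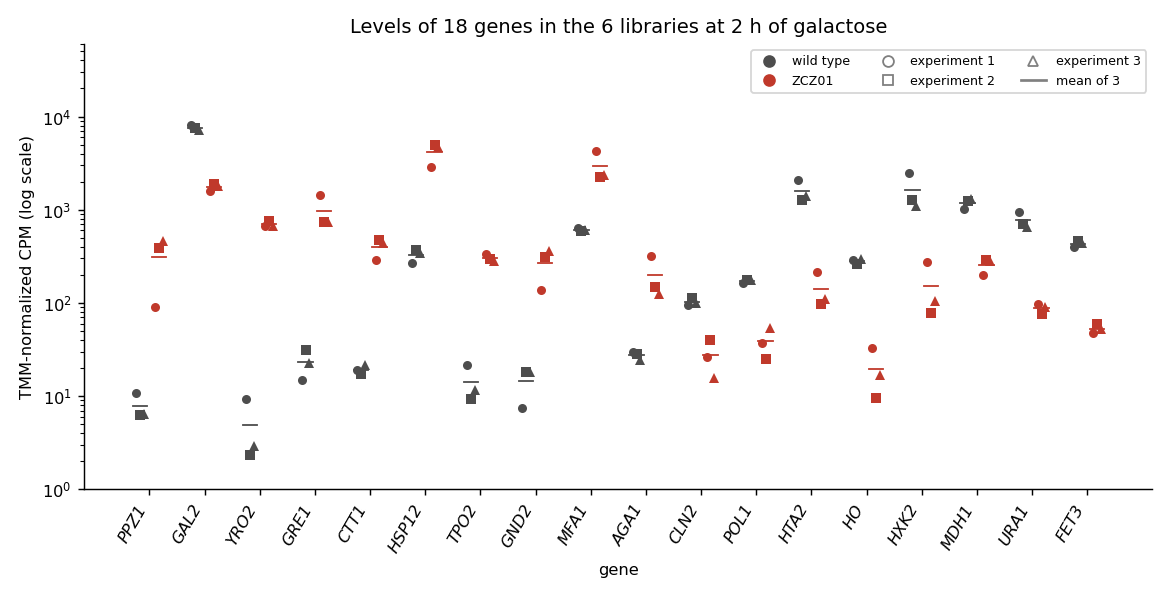
Levels of 18 genes named in the text in the 6 libraries at 2 h, in CPM after TMM scaling on a log axis, with 1 point per library (the shape gives the experiment) and a bar at the mean of each strain. PPZ1 is far higher in all 3 ZCZ01 libraries, as are YRO2, GRE1, CTT1 and HSP12, and GAL2, HTA2, HO and FET3 are lower in all 3.

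The response was read through 55 gene lists that cover pathways, complexes and regulons of yeast, written with earlier results of these data known. Stress and protein breakdown lists held the largest shares of higher genes, led by the general stress genes (26 of 31), the proteasome (29 of 36) and the hydrophilin list (6 of 8). The largest shares of lower genes were in the mitochondrial ribosome (60 of 75), the histones (8 of 11), the cytosolic ribosome (98 of 137) and the ADE genes (9 of 13). Of the 55 lists 7 had shares within 10 percentage points of those of all genes tested (19.1% higher and 23.2% lower) in both directions, and for these the counts are no result about the list. They were the dNTP, CLB2, amino acid permease, phosphate, iron, ER folding and cell wall lists.

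**Figure D2:**
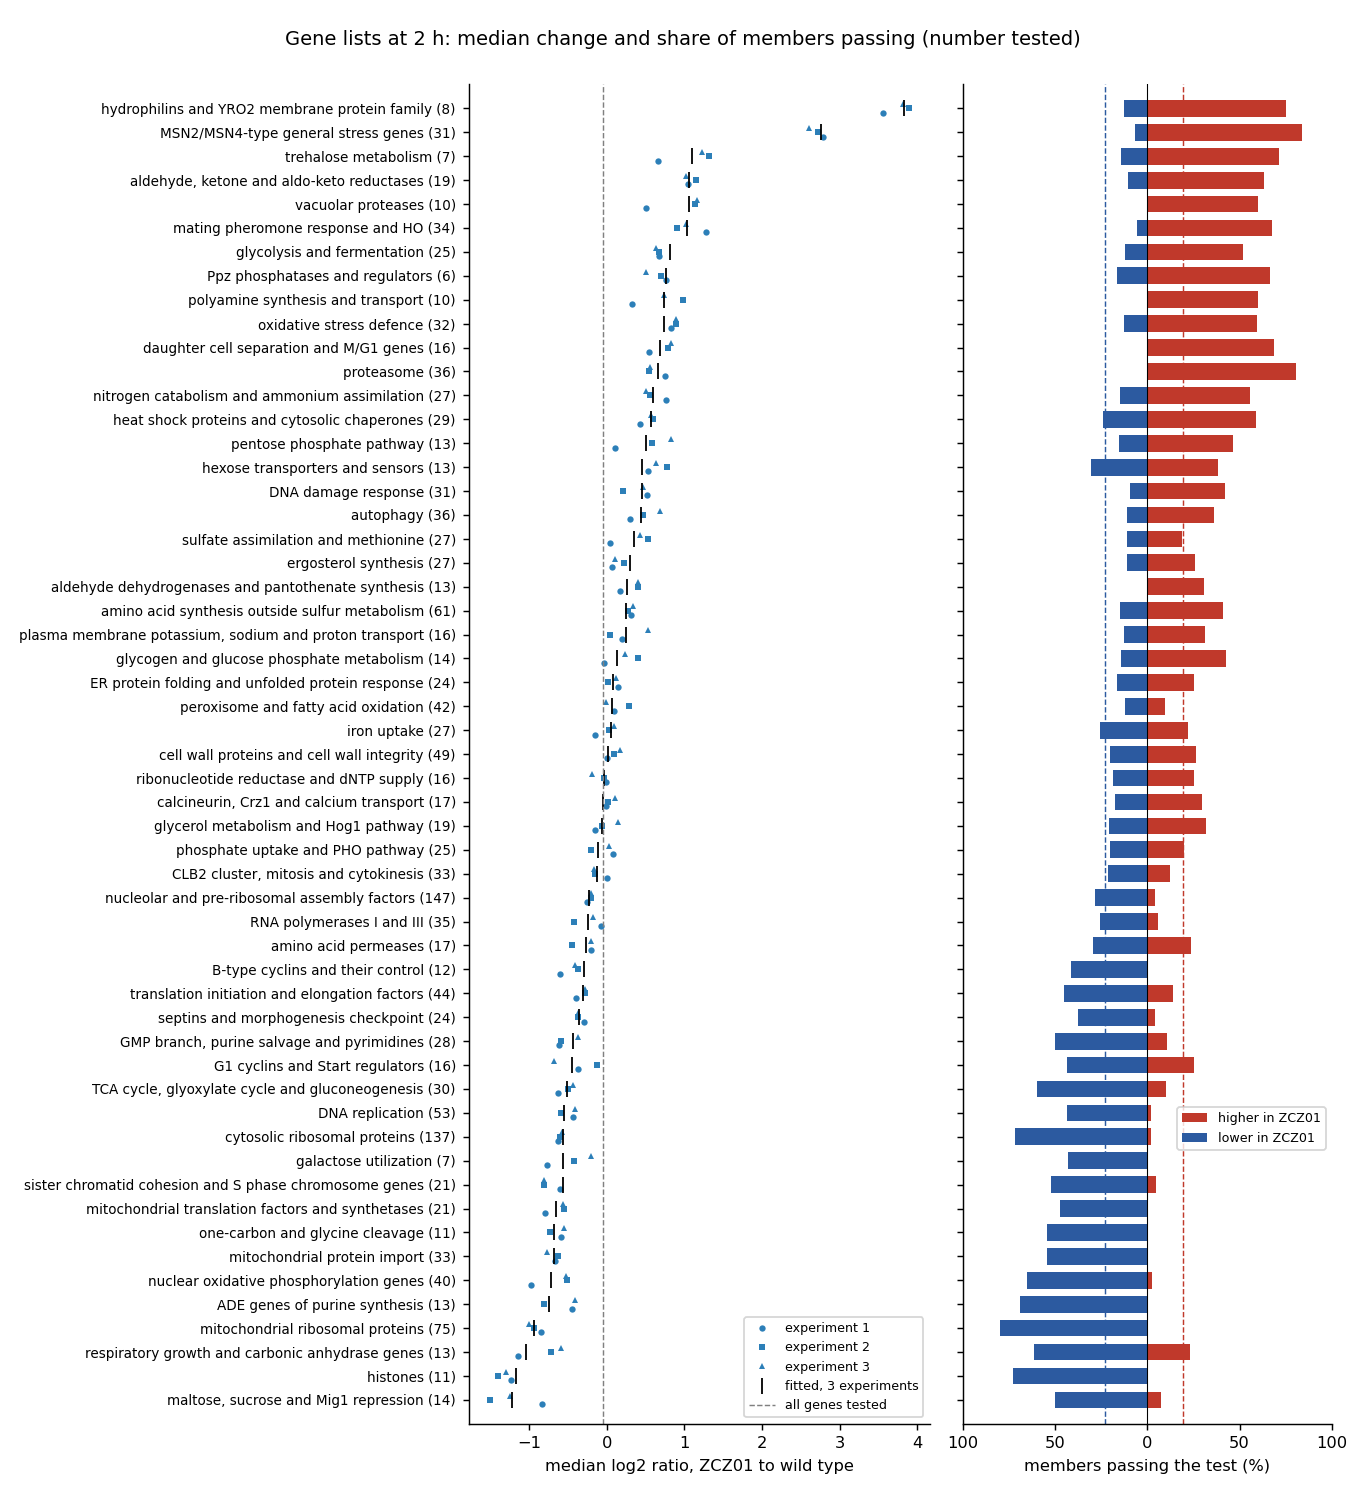
Median log2 fold change of ZCZ01 over wild type at 2 h for each gene list (left, a symbol per experiment and a bar for the fit), and the percent of its tested members that were higher or lower (right), with dashed lines for all genes tested. General stress, hydrophilin and mating lists sit to the right, and maltose, histone and mitochondrial ribosome lists to the left.

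General stress genes made up the strongest group. Of 31 genes of the Msn2 and Msn4 type 26 were higher, 2 lower and 3 did not pass, and their median log2 fold change was 2.76. HSP12, a small membrane-associated stress protein, had 267, 369.8 and 345 CPM in wild type and 2850.1, 4919.8 and 4746 CPM in ZCZ01. CTT1, the cytosolic catalase, had 18.8, 17.2 and 21.7 CPM in wild type and 292, 468 and 441 CPM in ZCZ01. Every ZCZ01 library was far above every wild type library in both, with log2 fold changes of 3.64 ± 0.14 (edgeR adjusted p = 9.0e-10) and 4.34 ± 0.18 (edgeR adjusted p = 1.4e-09). DDR2, a small stress-induced protein of unknown activity, had 57.8, 36.8 and 39.4 CPM in wild type and 315, 453 and 402 CPM in ZCZ01, and the strains did not overlap (3.11 ± 0.36). YGP1, a secreted glycoprotein made when nutrients run short, had 81.7, 87.6 and 71.1 CPM in wild type and 1597, 2079 and 2042 CPM in ZCZ01, which is higher in all 3 pairs (4.57 ± 0.17). The list members that fell were HXK1 (-2.26) and TMA10 (-1.58).

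YRO2, whose product is a plasma membrane protein of the Hsp30 family, showed the largest rise among genes with counts in every library. It had 9.42, 2.35 and 2.94 CPM in wild type and 676, 752 and 673 CPM in ZCZ01. No wild type library came near any ZCZ01 library, and the log2 fold change was 7.12 ± 0.29 (edgeR adjusted p = 1.3e-09). HSP30, which encodes a plasma membrane heat shock protein that restrains the proton pump Pma1, rose from 10.1, 6.26 and 11.2 to 134, 211 and 164 CPM, while the third family member, MRH1, did not pass (0.87). The hydrophilins are small, very water-loving proteins that accumulate under water loss. GRE1 rose from 15.1, 31.3 and 22.9 to 1437, 733 and 733 CPM, with experiment 1 highest, and its paralog SIP18 from 24.5, 34.4 and 39.95 to 371, 576 and 652 CPM. SIP18 overlaps YMR175W-A on the same strand, so their reads cannot be assigned apart. STF2, another hydrophilin, also rose (0.95), and NOP6, which works in ribosome assembly, fell (-0.82).

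The promoters of HSP12 and CTT1 are shown because both hold several copies of the stress response element, the site of Msn2 and Msn4. It was searched as AGGGG on both strands in the 300 bases that begin 400 bases before the coding start of each gene in the RefSeq R64 genome. The window of HSP12 is chrVI:106856-107155, plus strand, with matches beginning 377, 232 and 190 bases before the start, and that of CTT1 is chrVII:654234-654533, plus strand, with matches at 378, 363 and 133 bases. Among the general stress genes 25 of 31 windows (80.6%) held the letters, against 23.5% of 5986 promoters, 36.9% of the promoters of genes higher by at least 2-fold and 20.7% of those lower by at least 2-fold. YRO2's window held none. Capitals mark the element on either strand, and the gene lies to the right.
HSP12: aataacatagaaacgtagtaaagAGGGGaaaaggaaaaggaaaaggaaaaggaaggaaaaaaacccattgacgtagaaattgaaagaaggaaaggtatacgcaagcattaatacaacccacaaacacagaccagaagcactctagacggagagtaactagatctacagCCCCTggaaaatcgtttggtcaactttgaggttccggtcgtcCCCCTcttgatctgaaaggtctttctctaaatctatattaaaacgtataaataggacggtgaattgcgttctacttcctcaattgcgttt
CTT1: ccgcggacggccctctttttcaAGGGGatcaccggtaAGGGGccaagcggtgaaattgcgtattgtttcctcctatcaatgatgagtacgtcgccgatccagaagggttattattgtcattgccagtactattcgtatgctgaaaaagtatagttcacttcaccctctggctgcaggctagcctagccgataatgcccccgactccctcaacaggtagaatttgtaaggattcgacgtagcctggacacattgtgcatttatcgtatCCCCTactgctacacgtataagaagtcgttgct

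Chaperone genes went in both directions. Of 29 heat shock and cytosolic chaperone genes 17 were higher and 7 lower, with a median of 0.57. HSP26, a small heat shock protein that holds unfolded proteins, had 55.9, 254 and 231 CPM in wild type and 926, 1689 and 1629.6 CPM in ZCZ01, and SSA4, a stress-induced Hsp70, had 58.4, 75.1 and 77.6 CPM in wild type and 742, 1131 and 1072 CPM in ZCZ01. In both genes every ZCZ01 library was above every wild type library, with log2 fold changes of 3.16 ± 0.23 and 3.79 ± 0.15. HSP82, the inducible Hsp90, rose (1.39) while its near-identical constitutive partner HSC82 fell (-0.92). The core letters of the heat shock element, TTCNNGAA, were in 22 of the 29 windows (75.9%) and in 13.8% of all promoters. The other members that fell were SSB2 (-1.247), HSP60 (-1.07), SSA2 (-0.84), SSB1 (-0.67), HSP10 (-0.65) and SSA1 (-0.60). HSP26 overlaps the opposite-strand gene YBR072C-A. The counts without experiment 1, 2 or 3, or with experiments 2 and 3 summed, were 19, 11, 12 and 12 higher for this list.

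Genes that defend against peroxides and superoxide rose in the majority of cases (19 of 32, 4 lower, median 0.73). TSA2, a cytosolic peroxiredoxin, had 14.5, 17.98 and 11.2 CPM in wild type and 199, 261 and 283 CPM in ZCZ01. SRX1, the sulfiredoxin that repairs over-oxidised peroxiredoxin, had 10.7, 10.2 and 14.1 CPM in wild type and 115, 108 and 81.96 CPM in ZCZ01. AHP1, another thiol peroxiredoxin, had 623, 562 and 583 CPM in wild type and 4925, 3791 and 3688 CPM in ZCZ01. None of these genes had overlapping strains, and their log2 fold changes were 4.09 ± 0.22, 3.09 ± 0.29 and 2.80 ± 0.15 (edgeR adjusted p = 1.5e-08, 2.5e-06 and 1.0e-08). Further rises were GPX1 (2.69), GTT2 (2.12), TRR2 (1.80), SOD2 (1.13), GTT1 (1.11) and GRX2 (1.08). Members that fell included TRX1 (-1.54) and GRX5 (-1.03). The Yap1 element TTACTAA was in 31.2% of this list's promoter windows, 6.83% of all promoters and 6.97% of those of the genes higher by at least 2-fold. TSA2 overlaps PPN1 on the opposite strand. With experiment 1, 2 or 3 left out, or experiments 2 and 3 summed, there were 6, 2, 2 and 2 lower for this list.

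NADPH-linked and aldehyde-handling enzymes gave some of the largest single changes. Of 19 aldehyde, ketone and aldo-keto reductase genes 12 rose and 2 fell, with ARI1 (4.82), AAD10 (2.38), GRE2 (2.11), YDL124W (1.96) and BDH2 (1.73) at the top and BDH1 (-1.29) and ADH6 (-1.11) lower. NQM1, a transaldolase paralog, had 5.03, 10.9 and 22.9 CPM in wild type and 231, 837 and 842 CPM in ZCZ01, and GND2, a second 6-phosphogluconate dehydrogenase, had 7.54, 17.98 and 18.2 CPM in wild type and 137, 314 and 360.1 CPM in ZCZ01. Experiment 1 was lowest for NQM1 in both strains, but no ZCZ01 library fell within the wild type range. Their log2 fold changes were 5.60 ± 0.27 and 4.20 ± 0.23 (edgeR adjusted p = 5.8e-09 and 1.7e-08). In the pentose phosphate list 6 of 13 rose and RPE1 (-2.50) and TAL1 (-1.21) fell. The major transaldolase TAL1 and dehydrogenase GND1 had log2 fold changes of -1.21 and -0.61 (edgeR adjusted p = 7.9e-05 and 0.0600). NQM1 and GND2 overlap MTE1 and MTM1 on the opposite strand.

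ALD3, a cytosolic aldehyde dehydrogenase that helps turn polyamines into beta-alanine for pantothenate, had 28.3, 35.97 and 45.8 CPM in wild type and 672, 985 and 1014 CPM in ZCZ01. The lowest ZCZ01 value was many times the highest wild type value, with a log2 fold change of 4.596 ± 0.20 (edgeR adjusted p = 2.5e-09). Its neighbour and near copy ALD2 rose as well (2.33), as did FMS1, the polyamine oxidase (1.19), and PAN6, pantothenate synthase (1.01), while the other 9 genes of this list of 13 did not pass. Of 10 polyamine genes 6 rose and none fell. The exporters TPO2 and TPO3 rose by 4.43 and 1.40 on the log2 scale. Without experiment 1, 2 or 3, and with experiments 2 and 3 summed, the counts were 7, 4, 4 and 4 higher for the ALD list and 6, 3, 2 and 3 higher for polyamines. In the ALD list 2 genes were then lower without experiment 1.

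Among storage sugars, 5 of 7 trehalose genes rose. They were NTH1 (2.22), TPS1 (1.28), TPS3 (1.16), TPS2 (1.10) and TSL1 (0.82), which cover the synthase complex and the neutral trehalase NTH1, while NTH2, a second trehalase, fell (-0.70). Glycogen genes were mixed (6 higher, 2 lower of 14). GPH1, glycogen phosphorylase, and UGP1, which makes UDP-glucose, rose (1.03 and 0.73), and GSY1, a glycogen synthase, fell (-1.70). Leaving out experiment 1, 2 or 3, or summing experiments 2 and 3, gave 7, 3, 1 and 1 higher for glycogen. The threshold was missed without experiment 3 for TSL1 (0.67), NTH2 (-0.62) and UGP1 (0.54), with experiments 2 and 3 summed for NTH2 (-0.70) and UGP1 (0.68) and with no replicate block for UGP1 (0.66).

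DAK2, a dihydroxyacetone kinase, had 0, 0 and 0 counts in wild type and 22.4, 17.1 and 33.9 CPM in ZCZ01. Against a floor of 3 counts per wild type library its mean was at least 12.2-fold higher. Its paralog DAK1 had a log2 fold change of 1.70 (edgeR adjusted p = 3.0e-06). In the glycerol and Hog1 list, 6 of 19 rose (31.6%) and 4 fell (21.1%), against 19.1% and 23.2% of all genes. The rises included GPD1 (1.83), RHR2 (1.72), DAK1 (1.70) and GPD2 (1.63) and the falls included GUT1 (-1.504). The counts without experiment 1, 2 or 3, or with experiments 2 and 3 summed, were 3, 2, 1 and 1 lower for this list.

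Glycolytic and fermentation genes were higher in 13 of 25 cases and lower in 3, with a median of 0.81. TDH1, a glyceraldehyde-3-phosphate dehydrogenase used outside rapid growth, had 535, 862 and 759 CPM in wild type and 4293, 4518 and 4765 CPM in ZCZ01. PDC6, a minor pyruvate decarboxylase, had 0, 0.782 and 4.70 CPM in wild type and 37.6, 94.4 and 93.8 CPM in ZCZ01. The strains were apart in both genes, and the log2 fold changes were 2.68 ± 0.14 and 5.28 ± 0.48. ENO1, CDC19 and PDC1, of the lower pathway, rose by 2.09, 1.68 and 1.42 on the log2 scale. At the entry of the pathway the hexokinase genes HXK1 and HXK2 fell (-2.26 and -3.50). GLK1, for another glucose-phosphorylating enzyme, did not pass (0.86). TDH and ENO genes have near-identical copies, and how reads that fit several genes were treated is not stated. With experiment 1, 2 or 3 left out, or experiments 2 and 3 summed, there were 5, 2, 2 and 2 lower for this list.

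Genes of hexose transporters and their sensors were split, with 5 of 13 higher and 4 lower. The rises were HXT5 (3.72), HXT1 (3.44), HXT4 (2.83), RGT2 (1.98) and HXT3 (1.249) and the falls SNF3 (-1.76), HXT7 (-1.69), HXT6 (-0.85) and MTH1 (-0.67). HXT5 is the transporter made in slow growth, and HXT6 and HXT7, nearly identical to each other, are high-affinity carriers. RGT2 and SNF3 encode glucose sensors and MTH1 a regulator, so these are not carriers. In a list of maltose and sucrose genes and of regulators of glucose repression, 7 of 14 were lower and 1 was higher, with a median of -1.22. SUC2, the invertase that releases hexoses from sucrose and raffinose, had 103, 36.8 and 44.1 CPM in wild type and 5.999, 11.9 and 10.7 CPM in ZCZ01, and the maltase gene MAL12 had 40.8, 46.9 and 45.8 CPM in wild type and 1.09, 7.43 and 5.09 CPM in ZCZ01. Their log2 fold changes were -2.62 ± 0.34 and -3.37 ± 0.34 (edgeR adjusted p = 4.6e-05 and 5.3e-06). The gene that rose was MIG2 (2.07), a repressor related to Mig1. Calls were not kept with experiments 2 and 3 summed for HXT1 (3.48) and MTH1 (-0.67), without experiment 2 for HXT1 (2.58), MTH1 (-0.67) and MIG2 (1.83), without experiment 3 for HXT1 (2.86) and MTH1 (-0.70), in DESeq2 for HXT1 (3.77), with no filter for HXT1 (3.41), with no replicate block for HXT6 (-0.84) and with total counts only for MTH1 (-0.53).

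Nuclear genes for mitochondrial proteins were widely lower. Of 75 genes for mitochondrial ribosomal proteins none rose and 60 fell, with log2 fold changes from -1.93 to 0.17 and a median of -0.94. Among factors of mitochondrial translation 10 of 21 fell, among import genes 18 of 33, and none of either rose. Of 40 genes for oxidative phosphorylation 26 fell and 1 rose, which was CYC7 (1.22), and of 30 TCA cycle, glyoxylate and gluconeogenesis genes 18 fell and 3 rose. Without experiment 1, 2 or 3, and with experiments 2 and 3 summed, the counts were 11, 7, 5 and 6 lower for translation factors, 7, 1, 1 and 1 higher for oxidative phosphorylation and 5, 3, 3 and 2 higher for the TCA list. The Hap complex core CCAAT, the site of the Hap2/3/4/5 activator of respiration, was in 82.5% of the oxidative phosphorylation windows and 43.9% of all promoters.

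The mitochondrial ribosomal genes with the smallest adjusted p were MRPL39, MRP1 and MRPL19. MRPL39 had 198, 179.8 and 159.8 CPM in wild type and 48.5, 38.7 and 53.1 CPM in ZCZ01. MRP1 had 164, 163 and 182 CPM in wild type and 61.1, 52.04 and 52.003 CPM in ZCZ01. The strains did not overlap in either, and the log2 fold changes were -1.93 ± 0.19, -1.62 ± 0.16 and, for MRPL19, -1.72 ± 0.18 (edgeR adjusted p = 3.8e-06, 4.1e-06 and 5.9e-06). In the respiratory chain and TCA cycle, falls included CIT1 (-0.92), CYC1 (-2.28), ATP5 (-0.85) and QCR7 (-1.07). Isoform pairs parted here as well. CYC7, the cytochrome c isoform of low oxygen, had a log2 fold change of 1.22 and CYC1, the main isoform, of -2.28. Of regulators and markers of growth on respired carbon, 8 of 13 fell, among them HAP4 (-1.68), CAT8 (-2.89) and JEN1 (-2.16), which encode the limiting Hap subunit, the activator of gluconeogenic genes and the lactate carrier. NCE103, carbonic anhydrase, rose (3.20). Leaving out experiment 1, 2 or 3, or summing experiments 2 and 3, gave 7, 5, 5 and 5 lower for these regulators and markers. The call was lost with no replicate block for HAP4 (-1.42).

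Genes that yeast switches on as it enters S phase were lower. Of 11 histone genes 8 fell and none rose, with a median of -1.17. HTA2, a histone H2A gene, had 2092, 1286 and 1388 CPM in wild type and 215, 98.1 and 111 CPM in ZCZ01. HTB2, the divergently placed H2B gene, had 990.2, 689.7 and 679.8 CPM in wild type and 92.2, 76.6 and 74.6 CPM in ZCZ01. In both, every ZCZ01 library was at a small fraction of every wild type library, with log2 fold changes of -3.54 ± 0.14 and -3.26 ± 0.15 (edgeR adjusted p = 9.0e-10 and 2.6e-09). Of the sister pair, HTA1 fell (-1.17) and HTB1 did not pass (0.06), with experiment 1 on the other side of 0 from experiments 2 and 3. The H3 and H4 genes come in near-identical copies. The centromeric CSE4 did not pass (0.13). A pass was missed with no replicate block for HTA1 (-1.08).

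**Figure D3:**
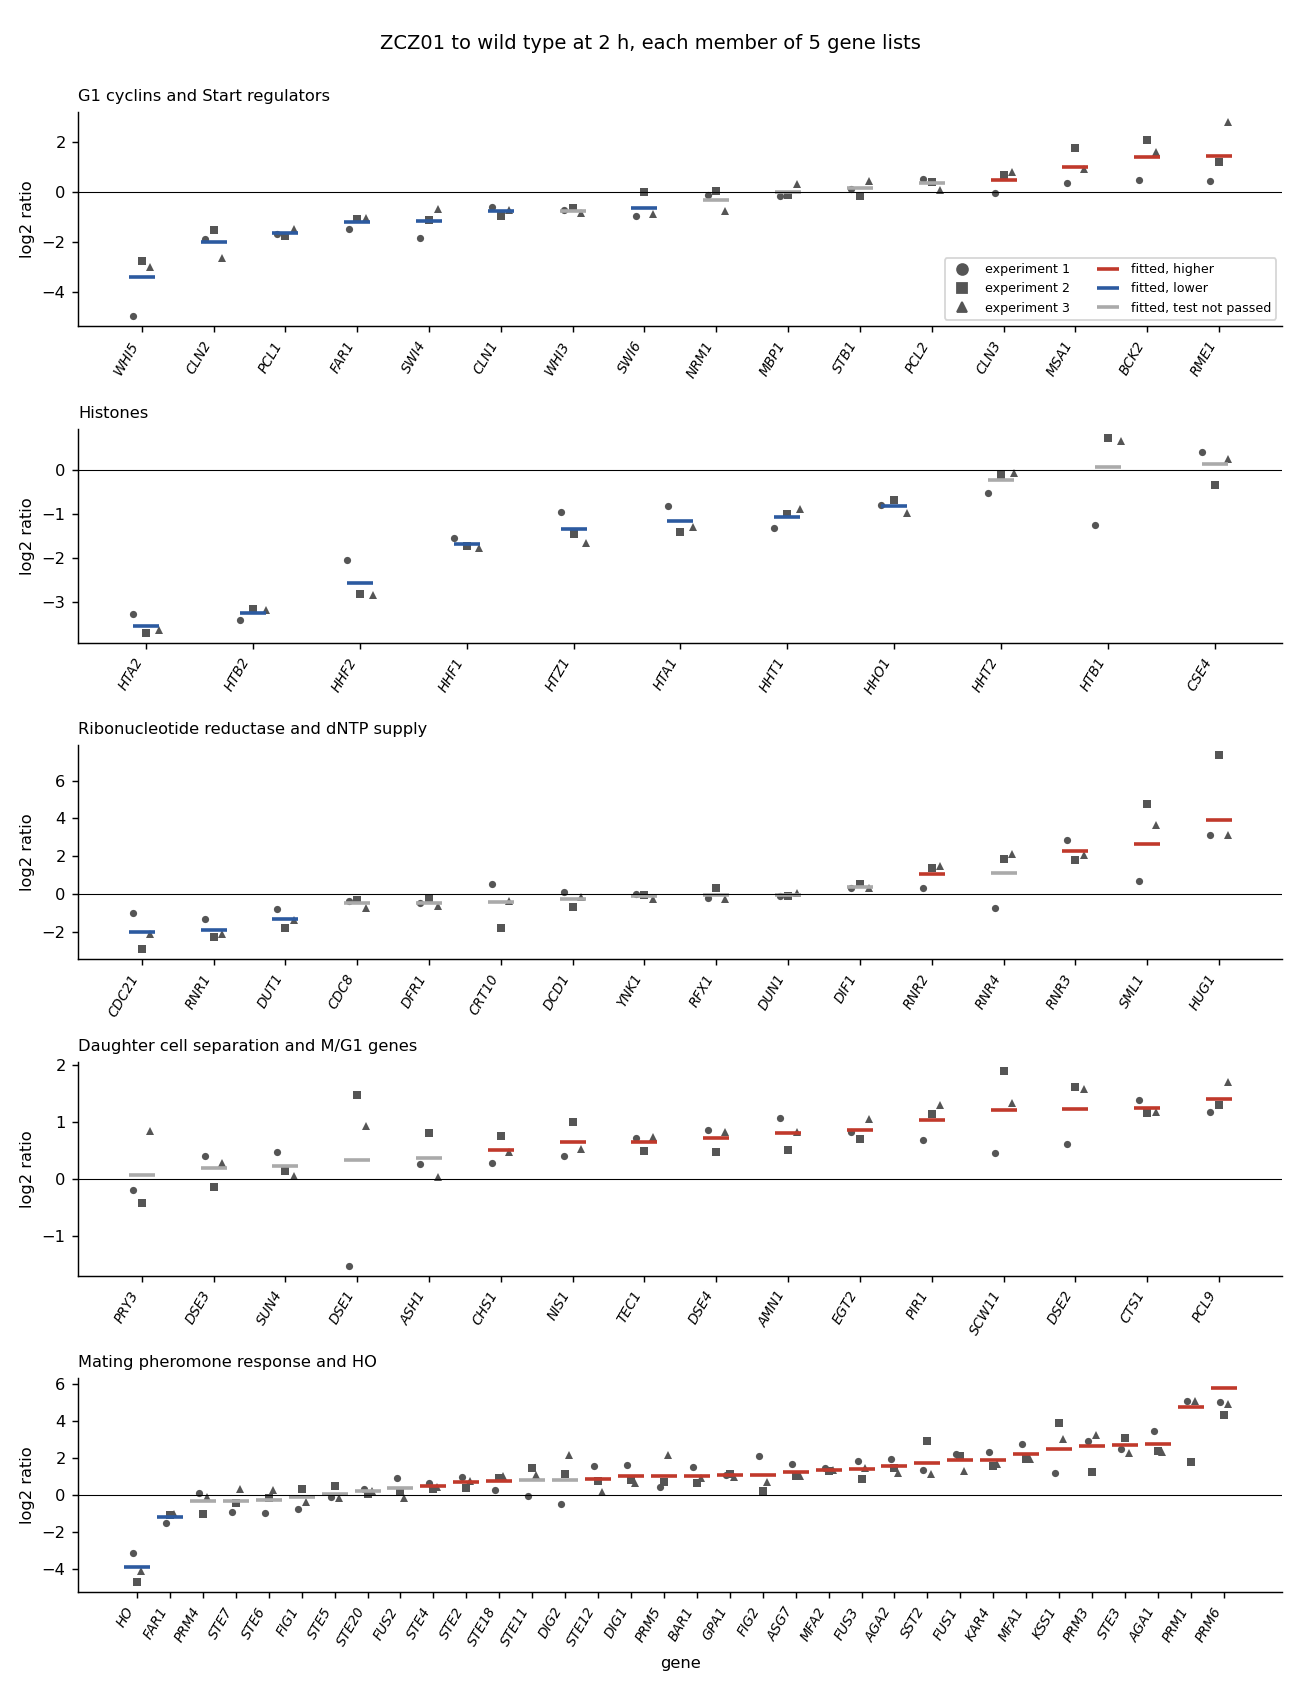
Log2 ratio of ZCZ01 over wild type in each of the 3 experiments for every tested member of 5 lists (Start regulators, histones, dNTP supply, daughter separation and mating response), with a bar for the fitted value in red (higher), blue (lower) or grey (test not passed). The 3 points of HTA2, HTB2 and HO lie far below 0, those of HTB1 on both sides of it, and those of AGA1 and FUS1 above it.

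The G1 cyclin genes that drive entry into the cycle were lower, whereas CLN3, the upstream cyclin, and BCK2, its parallel activator, were higher (0.52 and 1.41). CLN2 had 94.9, 114 and 99.3 CPM in wild type and 26.2, 40.1 and 15.8 CPM in ZCZ01 and CLB6, an S phase cyclin gene, 18.2, 20.3 and 24.1 CPM in wild type and 3.27, 0 and 2.26 CPM in ZCZ01. The strains did not overlap in either (-1.97 ± 0.22 and -3.38 ± 0.54, edgeR adjusted p = 1.4e-05 and 2.5e-04). CLN1, PCL1 and CLB5 fell too (-0.75, -1.61 and -1.45), as did WHI5, which holds back the G1 activator SBF, and SWI4, its DNA-binding subunit (-3.37 and -1.13). Of 16 Start genes 4 were higher and 7 lower, and of 12 genes of the B-type cyclins and their control none was higher and 5 were lower. The 5 lower genes of the B-type list were CLB1, CLB5, CLB6, SIC1 and SWE1. CLB2, the main mitotic cyclin, had a log2 fold change of -0.08 (edgeR adjusted p = 0.934). The counts without experiment 1, 2 or 3, or with experiments 2 and 3 summed, were 4, 2, 1 and 2 higher for Start genes, 6, 5, 5 and 4 lower for Start genes and 4, 3, 3 and 3 lower for B-type cyclins. The threshold was missed with no replicate block for CLN3 (0.56) and SWI4 (-1.05), in the fit of the 2 h libraries alone for CLN3 (0.56), with experiments 2 and 3 summed for CLN3 (0.44), CLN1 (-0.68) and SWI4 (-1.19), without experiment 2 for CLN3 (0.44), CLN1 (-0.63) and SWI4 (-1.12) and without experiment 3 for CLN3 (0.39) and CLN1 (-0.74).

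Replication genes were lower in 23 of 53 cases and higher in 1, with a median of -0.56, and 11 of 21 cohesion and S phase chromosome genes were lower. CDC21, thymidylate synthase, had 38.3, 74.3 and 64.04 CPM in wild type and 19.1, 9.66 and 14.7 CPM in ZCZ01. POL1, the DNA polymerase alpha subunit, had 163, 176 and 174 CPM in wild type and 37.6, 25.3 and 54.3 CPM in ZCZ01. Their log2 fold changes were -1.95 ± 0.32 and -2.15 ± 0.22 (edgeR adjusted p = 3.1e-04 and 5.9e-06). In the dNTP list RNR1, the main large subunit of ribonucleotide reductase, had 664, 359 and 311 CPM in wild type and 269, 76.6 and 72.4 CPM in ZCZ01 (-1.85 ± 0.19, edgeR adjusted p = 7.0e-06). RNR3, the damage-induced large subunit, had 10.1, 10.2 and 8.23 CPM in wild type and 75.8, 36.4 and 35.05 CPM in ZCZ01 (2.31 ± 0.34, edgeR adjusted p = 1.4e-04), and HUG1, a small protein induced by replication stress, rose from 3.14, 0 and 5.88 to 30.5, 63.2 and 53.1 CPM. With experiment 1, 2 or 3 left out, or experiments 2 and 3 summed, there were 7, 0, 0 and 0 higher for replication, 24, 13, 11 and 11 lower for replication, 13, 9, 7 and 9 lower for cohesion, 5, 3, 2 and 2 higher for the dNTP list and 5, 3, 3 and 3 lower for the dNTP list. CDC21 overlaps SGO1 on the opposite strand. Calls were not kept with no replicate block for RNR1 (-1.67).

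The promoters of CDC21 and POL1 are shown because each holds a pair of MCB elements, the site of the MBF activator of late G1. The letters ACGCGT read the same on both strands. CDC21's window is chrXV:467690-467989, minus strand, with elements 158 and 121 bases before the start, and POL1's is chrXIV:429687-429986, plus strand, with elements at 208 and 173 bases. MCB was in 43.4% of the replication list (23 of 53), 3.96% of all promoters, 9.37% of promoters of genes lower by at least 2-fold and 2.55% of those higher by at least 2-fold. The SCB element CGCGAAA, the site of SBF, was in 4.54% of all promoters, 9.75% of the lower genes' and 1.87% of the higher genes'. Its variant CACGAAA was in 4.84%, 7.27% and 2.55%. In the list of Start genes SCB was in 18.8% of windows (3 of 16) and the variant in 12.5% (2 of 16). Neither was in the windows of CLN1, CLN2 and SWI4. Capitals mark MCB, and the coding start lies to the right.
CDC21: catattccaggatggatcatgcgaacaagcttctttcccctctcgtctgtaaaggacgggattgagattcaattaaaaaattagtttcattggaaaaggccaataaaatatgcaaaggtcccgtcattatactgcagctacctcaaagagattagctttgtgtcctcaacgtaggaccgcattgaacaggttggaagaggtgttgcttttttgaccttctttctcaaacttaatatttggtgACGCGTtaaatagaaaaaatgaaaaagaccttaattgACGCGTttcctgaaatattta
POL1: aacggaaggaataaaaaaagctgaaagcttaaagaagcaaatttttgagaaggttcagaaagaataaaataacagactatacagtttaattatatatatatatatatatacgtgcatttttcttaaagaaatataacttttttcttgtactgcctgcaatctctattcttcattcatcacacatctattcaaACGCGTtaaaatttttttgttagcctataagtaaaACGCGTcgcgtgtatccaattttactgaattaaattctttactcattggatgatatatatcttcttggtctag

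Of the 33 genes of the CLB2 cluster, which act in mitosis and cytokinesis, 4 were higher (12.1%), 7 lower (21.2%) and 22 did not pass. These shares were near those of all genes tested (19.1% and 23.2%). CDC20, the mitotic activator of protein destruction, had a log2 fold change of 0.43 (edgeR adjusted p = 0.0769), CDC5, the polo kinase, of -0.80, and DBF2, a mitotic exit kinase, of 1.45. The forkhead element GTAAACA was in 54.5% of these windows and 6.30% of all promoters. Genes that act as daughter cells separate were higher in 11 of 16 cases and lower in none, with a median of 0.68. CTS1, the chitinase that splits mother from daughter, had 689, 454 and 408 CPM in wild type and 1802, 1004 and 921 CPM in ZCZ01 (1.24 ± 0.13, edgeR adjusted p = 7.3e-06), and its strains did not overlap. The cyclin gene PCL9 and the glucanase gene SCW11 rose by 1.40 and 1.202 on the log2 scale. Of 24 septin and morphogenesis genes 9 fell and 1 rose. SWE1, the kinase of the morphogenesis checkpoint, fell by 1.84 on the log2 scale. Without experiment 1, 2 or 3, and with experiments 2 and 3 summed, the counts were 4, 2, 2 and 2 higher for the CLB2 cluster, 10, 3, 1 and 3 lower for the CLB2 cluster, 13, 8, 7 and 9 higher for daughter separation and 9, 5, 5 and 6 lower for septins. The call was lost without experiment 2 for CDC5 (-0.66) and SCW11 (0.92).

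Mating response genes were mostly higher. Of 34 genes 23 rose, 2 fell and 9 did not pass, with a median of 1.03. AGA1, which anchors the a-agglutinin, had 29.5, 28.1 and 24.7 CPM in wild type and 321, 148 and 125 CPM in ZCZ01. FUS1, a membrane protein of cell fusion, had 32.7, 22.7 and 34.1 CPM in wild type and 153, 98.1 and 83.1 CPM in ZCZ01. Experiment 1 was highest in ZCZ01 for both, and no ZCZ01 library overlapped wild type (2.75 ± 0.22 and 1.86 ± 0.20, edgeR adjusted p = 5.1e-07 and 8.5e-06). PRM1 and PRM6, further pheromone targets, had 0, 1 and 0 and 1, 0 and 0 counts in the wild type libraries and 19, 5 and 17 and 56, 10 and 15 in ZCZ01, too few in wild type for a fold. Other rises were MFA1 (2.21), MFA2 (1.36), KAR4 (1.88), AGA2 (1.54), GPA1 (1.07), FUS3 (1.39) and PRM3 (2.65). PRM1 did not pass without experiment 3, nor PRM6 in DESeq2.

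HO, the mating type switching endonuclease made in late G1 in mother cells, had 287, 260.4 and 293 CPM in wild type and 32.7, 9.66 and 16.96 CPM in ZCZ01, the largest called fall of a gene on the lists. It was lower in every ZCZ01 library (-3.86 ± 0.25, edgeR adjusted p = 6.1e-08). FAR1, the pheromone-controlled inhibitor of G1 cyclin kinase, fell by 1.19 on the log2 scale. The 6 marker genes of a cells, which BY4741 expresses, summed to 1975 to 2067 CPM in wild type and 5260 to 7982 CPM in ZCZ01. MFA1, an a-factor gene, gave much of this, with 638, 593 and 607 CPM in wild type and 4289, 2261 and 2371 CPM in ZCZ01, and STE6, the a-factor exporter, did not pass (64.1, 57.9 and 66.98 CPM in wild type and 33.3, 52.04 and 79.7 CPM in ZCZ01). The 4 alpha cell markers summed to 8.81 to 14.1 CPM in wild type and 31.1 to 71.4 CPM in ZCZ01, of which SAG1 had 12 to 16 counts in wild type and 28 to 48 in ZCZ01. The defining alpha factor gene MF(ALPHA)1 had 0 to 1 and 5 to 35 counts. The 4 markers of sporulation summed to 28.1 to 36.4 and 46.1 to 82.4 CPM. The part of other cell types in the result was not tested.

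Shown next are the promoters of FUS1 and AGA1, which hold the pheromone response element bound by Ste12. The letters TGAAACA were searched on both strands, a motif added after the values were seen. In FUS1, at chrIII:71403-71702, plus strand, the matches begin 187 and 160 bases before the start, and in AGA1, at chrXIV:703299-703598, plus strand, 202 bases before it. The element was in 67.6% of the mating list's windows (23 of 34) and 7.67% of all promoters, and in 9.18% and 6.31% of those of genes higher and lower by at least 2-fold. FUS1 overlaps HBN1 on the opposite strand. Capitals mark the element on either strand.
FUS1: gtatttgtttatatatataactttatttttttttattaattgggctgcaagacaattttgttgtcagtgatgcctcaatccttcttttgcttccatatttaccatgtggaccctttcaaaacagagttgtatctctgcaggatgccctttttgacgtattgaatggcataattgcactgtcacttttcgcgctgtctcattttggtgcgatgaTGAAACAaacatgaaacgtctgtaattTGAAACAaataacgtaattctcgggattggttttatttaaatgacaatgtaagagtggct
AGA1: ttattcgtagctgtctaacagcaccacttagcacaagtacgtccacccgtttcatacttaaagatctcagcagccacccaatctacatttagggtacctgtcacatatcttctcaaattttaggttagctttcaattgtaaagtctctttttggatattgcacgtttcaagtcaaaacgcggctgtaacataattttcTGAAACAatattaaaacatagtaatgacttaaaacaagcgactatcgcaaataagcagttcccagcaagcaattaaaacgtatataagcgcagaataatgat

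Genes of the cytosolic ribosome were lower in 98 of 137 cases and higher in 3, with a median of -0.56. The falls with the smallest adjusted p were RPL7A (-1.21), RPS26B (-1.09), RPL14A (-1.003), RPL18B (-1.69), RPS9B (-0.97) and RPS14A (-1.07). Many of these genes are pairs of near copies, so reads may have been shared within pairs. Of 147 nucleolar and assembly factor genes 42 fell (28.6%) and 6 rose (4.1%). The share of falls was near that of all genes (23.2%), and the share of rises was below it (19.1%). The median of these genes was -0.24, whereas at 0.5 h it had been 0.91. PAC, the letters GATGAG, was in 63.3% of the assembly windows and 18.4% of all promoters. Of 35 genes for RNA polymerases I and III 9 fell and 2 rose, a share of falls near that of all genes (23.2%), and of 44 translation factor genes 20 fell and 6 rose. ANB1, the eIF5A isoform used at low oxygen, had 2.51, 0 and 0 CPM in wild type and 16.4, 28.99 and 24.3 CPM in ZCZ01 (4.58 ± 0.76), and was higher in every pair. Leaving out experiment 1, 2 or 3, or summing experiments 2 and 3, gave 15, 2, 1 and 1 higher for ribosomal proteins, 107, 61, 55 and 58 lower for ribosomal proteins, 19, 1, 1 and 1 higher for assembly factors, 59, 12, 12 and 13 lower for assembly factors, 4, 0, 0 and 0 higher for polymerases, 14, 3, 2 and 4 lower for polymerases, 14, 2, 1 and 3 higher for translation factors and 23, 8, 7 and 6 lower for translation factors.

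In purine synthesis 9 of 13 genes fell and none rose, with a median of -0.75. ADE17, which makes IMP, had 124, 102 and 136 CPM in wild type and 48.5, 36.4 and 36.2 CPM in ZCZ01, with a log2 fold change of -1.58 ± 0.22 (edgeR adjusted p = 6.8e-05). Each ZCZ01 library was below each wild type library. Others that fell were ADE12 (-1.15), ADE1 (-0.90), ADE8 (-0.86), ADE4 (-0.75), ADE13 (-1.06) and BAS1 (-0.78), where BAS1 encodes the activator of the pathway. At 4 h the median of the list was -1.79. Of 28 genes of the GMP branch, salvage and pyrimidines 14 fell, led by URA1, dihydroorotate dehydrogenase, with 943, 701 and 659 CPM in wild type and 96.5, 76.6 and 91.6 CPM in ZCZ01 (-3.11 ± 0.20), and 3 rose, led by URA10 (2.29). Of 11 one-carbon and glycine cleavage genes 6 fell and none rose. SHM2, cytosolic serine hydroxymethyltransferase, fell by 1.81 on the log2 scale. The counts without experiment 1, 2 or 3, or with experiments 2 and 3 summed, were 10, 5, 4 and 6 lower for ADE genes and 5, 1, 2 and 1 higher for the GMP list. A pass was missed without experiment 3 for ADE1 (-0.72), ADE8 (-0.67) and ADE4 (-0.77), without experiment 2 for ADE8 (-0.78) and BAS1 (-0.62), with no replicate block for ADE13 (-0.94) and with experiments 2 and 3 summed for BAS1 (-0.77).

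Amino acid synthesis genes were more often higher (25 of 61) than lower (9). SER3, the first enzyme of serine synthesis from glycolysis, had 38.95, 34.4 and 35.3 CPM in wild type and 371, 798 and 775 CPM in ZCZ01 (4.08 ± 0.25, edgeR adjusted p = 3.9e-08). SER3 overlaps the regulatory transcript SRG1 on the same strand. Arginine genes that rose were CPA1 (3.44), ARG1 (2.88), ARG3 (2.29), ARG4 (1.90), ARG5,6 (1.85) and ARG7 (1.40). ARO9, an aromatic aminotransferase, fell (-3.25), and GCN4, the activator of the pathway, rose (0.51). The Gcn4 element TGACTC was in 62.3% of this list's windows and 8.47% of all promoters. Of 27 nitrogen catabolism genes 15 rose and 4 fell, with DAL1 (2.77), UGA2 (2.46), DUR3 (2.31) and PUT1 (1.97) at the top. GAP1, the general amino acid permease, had 20.1, 22.7 and 17.6 CPM in wild type and 118, 106 and 91.6 CPM in ZCZ01 (2.38 ± 0.18), whereas the permease genes GNP1 (-2.18), TAT1 (-1.43) and BAP3 (-0.75) fell. Of 27 sulfur genes 5 rose and 3 fell. MMP1, the S-methylmethionine permease, fell from 114, 90.7 and 74.6 to 17.997, 13.4 and 8.48 CPM. CPA1 overlaps YOR302W, its leader reading frame, on the same strand. With experiment 1, 2 or 3 left out, or experiments 2 and 3 summed, there were 32, 13, 12 and 15 higher for amino acid synthesis, 15, 3, 3 and 3 lower for amino acid synthesis, 12, 6, 7 and 7 higher for nitrogen genes, 4, 1, 1 and 1 lower for nitrogen genes, 14, 3, 2 and 3 higher for sulfur genes and 6, 3, 4 and 3 lower for permeases. The threshold was missed without experiment 3 for ARG3 (1.91), GCN4 (0.54) and DAL1 (3.61), with experiments 2 and 3 summed for GCN4 (0.53), BAP3 (-0.82) and DAL1 (2.81), without experiment 2 for GCN4 (0.51), BAP3 (-0.79) and DAL1 (2.43) and with no replicate block for DAL1 (2.76).

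Proteasome genes moved together. Of 36 genes 29 rose, none fell and 7 did not pass, and the log2 fold changes ran from -0.13 to 1.502, with a median of 0.66. PRE6, an alpha subunit of the core, had 191, 256 and 214 CPM in wild type and 506, 451 and 520.0 CPM in ZCZ01 (1.17 ± 0.19, edgeR adjusted p = 2.9e-04). PUP3, a beta subunit, had 211, 241 and 240.3 CPM in wild type and 319.6, 334 and 345 CPM in ZCZ01 (0.53 ± 0.14, edgeR adjusted p = 0.00649). RPN4, the activator of the proteasome genes, rose by 1.33 on the log2 scale. At 4 h the list had a median of -0.02, and 15 of the 36 genes had a lower effect at 4 h than at 2 h, against 6.88% of all genes. That count was 0 with experiments 2 and 3 summed and without either of them, 4 with no replicate block and 30 without experiment 1. Of 10 vacuolar protease genes 6 rose and none fell, among them PRB1 and PEP4, the proteinases B and A (1.11 and 1.01). Of 36 autophagy genes 13 rose and 4 fell, and ATG8, the ubiquitin-like protein of the growing membrane, rose by 1.98 on the log2 scale. Without experiment 1, 2 or 3, and with experiments 2 and 3 summed, the counts were 30, 13, 11 and 15 higher for the proteasome, 18, 8, 6 and 10 higher for autophagy and 3, 0, 0 and 0 lower for autophagy. Calls were not kept with experiments 2 and 3 summed for PUP3 (0.58), without experiment 2 for PUP3 (0.59) and without experiment 3 for PUP3 (0.57).

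PRE6 and PUP3 are shown for the proteasome-associated control element, the site of Rpn4, searched as GGTGGCAAA on both strands. The match lies 109 bases before the start of PRE6 in chrXV:254937-255236, plus strand, and 183 bases before that of PUP3 in chrV:349447-349746, minus strand. These 9 letters were in 58.3% of the proteasome windows (21 of 36) and 1.15% of all promoters. Among genes higher and lower by at least 2-fold the shares were 1.70% and 0.765%. Capitals mark the element.
PRE6: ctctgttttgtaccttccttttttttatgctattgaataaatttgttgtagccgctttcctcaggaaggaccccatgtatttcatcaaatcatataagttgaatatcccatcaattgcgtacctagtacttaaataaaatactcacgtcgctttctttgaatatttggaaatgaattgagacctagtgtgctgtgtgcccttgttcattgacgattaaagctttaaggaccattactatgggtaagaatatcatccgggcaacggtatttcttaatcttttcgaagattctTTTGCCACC
PUP3: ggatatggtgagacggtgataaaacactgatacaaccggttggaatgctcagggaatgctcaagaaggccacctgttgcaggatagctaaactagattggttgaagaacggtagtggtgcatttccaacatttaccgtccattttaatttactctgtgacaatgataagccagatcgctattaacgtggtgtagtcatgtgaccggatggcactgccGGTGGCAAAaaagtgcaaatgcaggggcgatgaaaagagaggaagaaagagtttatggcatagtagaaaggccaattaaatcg

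Iron uptake genes were higher in 6 and lower in 7 of 27 cases, near the shares of all genes (19.1% and 23.2%). FET3, the copper oxidase of high-affinity iron uptake, had 401, 457 and 435 CPM in wild type and 47.4, 59.5 and 52.003 CPM in ZCZ01, lower in each ZCZ01 library (-3.03 ± 0.14, edgeR adjusted p = 2.5e-09). Its partner permease FTR1 and the siderophore carrier SIT1 fell as well (-2.47 and -2.60). The 6 that rose were FRE4 (3.03), MRS4 (2.25), HMX1 (2.07), FET4, a low-affinity carrier (1.57), CTH1 (1.12) and ARN2 (0.78). Of 25 phosphate genes 5 rose and 5 fell, also near those shares. The 5 that fell were SPL2, a phosphate pathway regulator (-2.19), and the polyphosphate synthesis genes of the VTC complex, with VTC2 at -1.04. PHM8, a nucleotide phosphatase, rose by 3.96 on the log2 scale. Leaving out experiment 1, 2 or 3, or summing experiments 2 and 3, gave 7, 4, 3 and 4 higher for iron genes, 8, 4, 4 and 4 higher for phosphate genes and 7, 2, 2 and 2 lower for phosphate genes.

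The promoter of FET3, at chrXIII:388422-388721, plus strand, is printed because it holds the Aft1 element, searched on both strands as GCACCC after the values were seen. The matches begin 380 and 250 bases before the start. The letters were in 70.4% of the iron list's windows and in 4.89% of all promoters, 5.44% of those of genes higher and 5.35% of those of genes lower by at least 2-fold. Capitals mark the element.
FET3: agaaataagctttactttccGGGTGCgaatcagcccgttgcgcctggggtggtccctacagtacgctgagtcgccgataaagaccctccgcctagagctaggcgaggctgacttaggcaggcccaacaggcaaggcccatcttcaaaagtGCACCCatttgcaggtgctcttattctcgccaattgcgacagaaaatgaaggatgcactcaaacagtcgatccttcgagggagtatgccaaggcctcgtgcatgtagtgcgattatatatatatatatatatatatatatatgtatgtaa

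Transport of potassium, sodium and protons, the field in which Ppz1 is best known, had 5 of 16 genes higher and 2 lower, against 19.1% and 23.2% of all genes. None was lower without experiment 2, without experiment 3 or with both summed. The small proteolipids of the proton pump, PMP1 and PMP2, rose by 2.87 and 2.54 on the log2 scale, and the pump gene PMA1 by 1.15. TRK1, the main potassium carrier, and HAL5, a kinase that keeps it at the membrane, rose by 0.67 and 0.81, and NHA1, a sodium and proton exchanger, fell (-0.67). ENA1, the sodium pump gene under calcineurin control, had 1.26, 36.8 and 32.3 CPM in wild type and 0, 30.5 and 38.4 CPM in ZCZ01, and did not pass (-0.09 ± 0.36, edgeR adjusted p = 0.864). ENA1, ENA2 and ENA5 are near copies. Of 17 calcineurin and calcium genes 5 rose (29.4%) and 3 fell (17.6%). Of 49 cell wall genes 13 rose (26.5%) and 10 fell (20.4%), near the shares of all genes. The log2 fold changes of the wall list ran from -2.20 to 4.57. Among its rises were PIR3, SPI1 and SED1, wall proteins of stressed or resting cells (3.95, 2.68 and 1.99). PMP1 overlaps YCR024C-B on the same strand. The counts without experiment 1, 2 or 3, or with experiments 2 and 3 summed, were 7, 3, 2 and 4 higher for ion transport, 4, 3, 2 and 3 higher for calcineurin and 12, 6, 7 and 6 lower for the wall. The call was lost without experiment 2 for PMP2 (2.02), HAL5 (0.75) and NHA1 (-0.73), without experiment 3 for PMP2 (1.96), TRK1 (0.75), HAL5 (0.80) and NHA1 (-0.49) and with experiments 2 and 3 summed for HAL5 (0.79) and NHA1 (-0.62).

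In the DNA damage list 13 of 31 rose and 3 fell. Beside HUG1 and RNR3, RAD16, of excision repair, and RAD52, of recombination, rose by 1.60 and 0.79 on the log2 scale, while MSH6, of mismatch repair, fell (-0.77). Of 24 genes of ER folding 6 rose and 4 fell, so that as large a part passed as of all genes (42.3%). Of 27 ergosterol genes 7 rose and 3 fell, and ROX1, a repressor of low-oxygen genes, rose by 1.86. Peroxisome genes mostly did not pass (33 of 42). With experiment 1, 2 or 3 left out, or experiments 2 and 3 summed, there were 9, 6, 7 and 8 higher for DNA damage, 8, 2, 1 and 1 higher for ER folding, 3, 2, 2 and 2 lower for ER folding, 13, 3, 4 and 5 higher for ergosterol, 6, 1, 1 and 1 lower for ergosterol, 8, 1, 1 and 1 higher for peroxisomes and 10, 3, 2 and 3 lower for peroxisomes. A pass was missed in the fit of the 2 h libraries alone for RAD52 (0.83), with experiments 2 and 3 summed for RAD52 (0.79), without experiment 2 for RAD52 (0.88), without experiment 3 for RAD52 (0.64) and MSH6 (-0.66) and in DESeq2 for RAD52 (0.83).

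Several of the largest changes were in genes with little or no known function. YDR034W-B, a small tail-anchored protein of the membrane, had 2.51, 3.13 and 0.588 CPM in wild type and 75.8, 103 and 114 CPM in ZCZ01 (5.55 ± 0.47, edgeR adjusted p = 1.0e-06). YER053C-A, a short protein, had 4.40, 3.13 and 1.76 CPM in wild type and 63.8, 119 and 105 CPM in ZCZ01 (4.88 ± 0.36). Both were at a few CPM in wild type and many times higher in all ZCZ01 libraries. YNL144C, uncharacterised, had 69.7, 77.4 and 72.3 CPM in wild type and 8.18, 7.43 and 13.001 CPM in ZCZ01 (-2.92 ± 0.30), and YML089C, a dubious reading frame that overlaps YML090W, had 83.6, 91.5 and 76.4 CPM in wild type and 3.27, 26.8 and 9.61 CPM in ZCZ01 (-2.86 ± 0.63). SFG1, a putative regulator of surface growth as filaments, fell from 72.9, 165 and 147 to 5.999, 28.99 and 22.6 CPM, with experiment 1 lowest in both strains and no overlap.

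**Figure D4:**
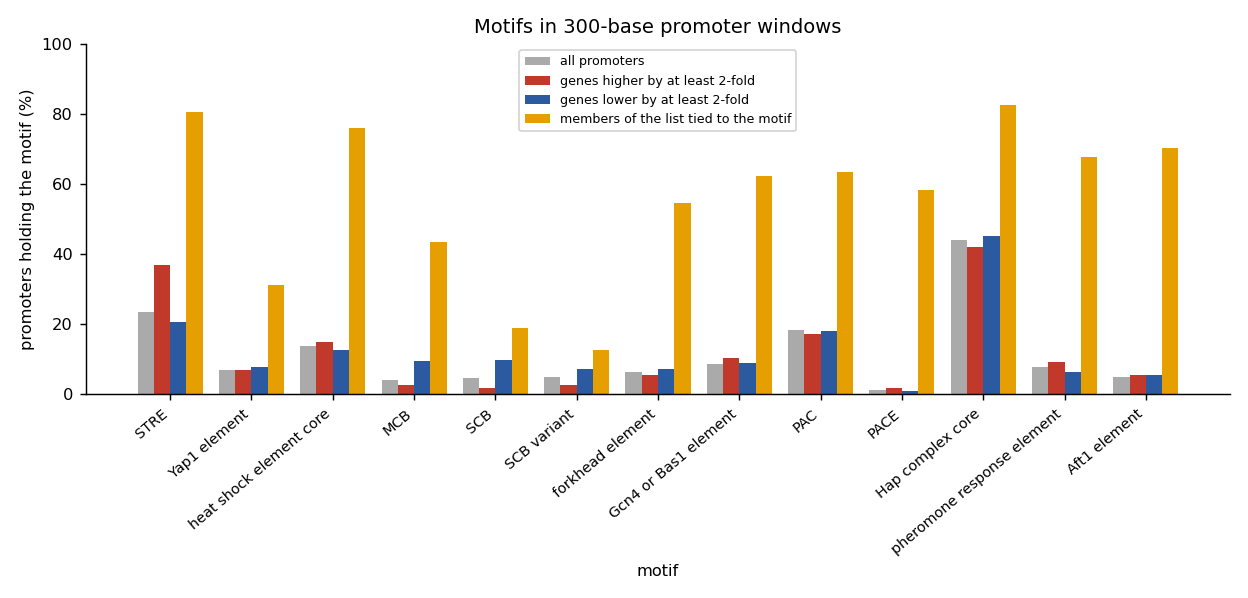
Percent of promoter windows that hold each motif, for all 5986 promoters, for genes higher or lower by at least 2-fold in ZCZ01 at 2 h, and for the list each motif belongs to. STRE is more frequent in higher genes (36.9%) than in all promoters (23.5%), and MCB and SCB in lower genes (9.37% and 9.75%).

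Against the other times, the effect at 2 h was above that at 0.5 h for 705 genes (12.5%) and below it for 1029 (18.2%), by contrasts of the same fit. The effect at 4 h was above that at 2 h for 388 genes (6.86%) and below it for 389 (6.88%). With experiments 2 and 3 summed these counts were 377, 472, 10 and 43. They were 361, 480, 12 and 54 without experiment 2, 309, 430, 7 and 27 without experiment 3, and 1022, 1332, 1005 and 963 without experiment 1, so the contrast of 4 h with 2 h rests on counting experiments 2 and 3 separately. Of the 1079 genes higher at 2 h, 576 were also higher at 4 h and 52 lower, and 34 were also higher at 0.5 h and 50 lower. Of the 1313 lower genes, 698 were lower and 32 higher at 4 h, and 37 were lower and 90 higher at 0.5 h. Taken alone, the effect at 0.5 h passed for 258 genes that were higher (4.56%) and 130 that were lower (2.3%), and that at 4 h for 1125 (19.9%) and 1212 (21.4%). A 2 h effect above both other times was found for 148 genes and one below both for 216.

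HSP12 was lower in ZCZ01 at 0.5 h and higher later, with log2 fold changes of -1.16, 3.64 and 3.04 at 0.5, 2 and 4 h, and SIP18 had a larger effect at 4 h than at 2 h (0.51, 4.00 and 6.56). YRO2 had its largest effect at 2 h (0.17, 7.12 and 4.94), as had YER053C-A (1.36, 4.88 and 0.74). HTB2 did not pass at 0.5 h and was lower at both later times (0.13, -3.26 and -3.54). SML1, the ribonucleotide reductase inhibitor, rose at 2 h and had 0.20, 2.64 and -1.74, but its wild type values were uneven (55.9, 5.47 and 9.99 CPM), and MMP1, lower at 2 h, did not pass at 4 h (-0.66, -2.83 and -0.20). At 2 h itself SML1 missed the threshold with no replicate block (2.39) and with experiments 2 and 3 summed (2.31). It did so too without experiment 2 (2.00) and without experiment 3 (2.27). Differences between times were not checked for single genes under the alternatives.

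**Figure D5:**
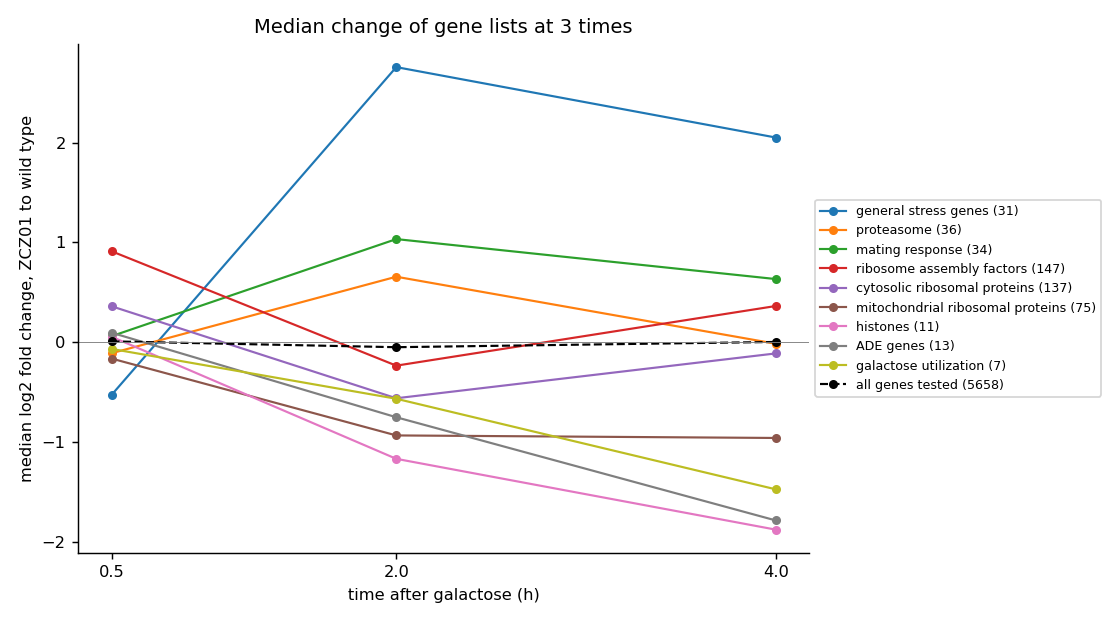
Median log2 fold change of ZCZ01 over wild type at 0.5, 2 and 4 h for 9 gene lists (number of genes tested in brackets) and for all genes tested (dashed). The general stress median is -0.53, 2.76 and 2.05, the proteasome median is near 0 at 0.5 and 4 h, and the ADE and histone medians are lowest at 4 h.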

How the data were processed

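Libraries of wild type and ZCZ01 at 2 h of galactose came from 3 experiments, and the whole numbers in the 3 tables are counts that the authors deposited with no scaling. Per the labels, RNA was made into QuantSeq 3′ libraries, and the submitters' processing notes name Bowtie2. Its version, the counting options and the strand setting are not given in the sources used here. Each table has 6692 gene probes, of which 6009 were matched to genes of the RefSeq R64 annotation. A probe runs 100 bases past the gene for 6000 of them. Overlap with a gene of the same strand was found for 547 probes and with one of the opposite strand for 2400. No column of values was left out.

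In edgeR 4.0.16 (R 4.3.3), filterByExpr kept 5658 genes and TMM gave the scaling. The model had 9 blocks, 1 for each pair of libraries of an experiment and time, and an effect of ZCZ01 at each of 3 times over all 18 libraries. P-values of the quasi-likelihood test were adjusted over all genes (Benjamini-Hochberg), with a call at an adjusted p under 0.05. Differences between times were contrasts of this model. CPM values are TMM-scaled counts per 1000000, and per-experiment log2 ratios had 0.5 counts added. The pairing comes from the library names, and the deviations of the 2 libraries of a pair from their group means correlated at 0.535 to 0.814 over the 9 pairs. The model was tested on simulated data. The count tests measure the spread between libraries, and 1 library holds 1215608 to 1899369 counts. Where wild type held 0 counts, a fold was bounded with a floor of 3 counts per library.

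The members of the comparison and the 55 lists were chosen with earlier results of these data known. Genes were named by a rule that gave 368 genes, and not all of these are named in the text. It took PPZ1 and the 15 largest changes per direction among genes above the lowest 0.25 of mean levels whose sign the 3 experiments shared. It also took up to 6 members of each list with the smallest adjusted p and up to 2 that go against it. The 5 largest differences between times in each direction and genes the study names completed it. Genes outside this rule were named after their values were seen, as roles or list members. Promoters were read from R64 for 5986 genes, as the 300 bases that begin 400 bases before the coding start, and 13 motifs were searched with no test. Some items are not reported here. The pheromone response and Aft1 elements were added after values were seen. Alternatives were no block or 1 block per experiment, the 2 h libraries alone, RLE, upper quartile and total count scaling, other filters, summed experiments 2 and 3, each experiment left out, the times of the titles, limma 3.58.1 and DESeq2 1.42.0. Tables and plots were made with pandas 2.3.3, numpy 2.4.6 and matplotlib 3.10.9 in Python 3.11.15.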

Additional observations from a re-analysis of the deposited data

Results flagged for a closer look

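These genes had an effect of ZCZ01 that differed between times, tested as a contrast of effects in edgeR's quasi-likelihood fit, and are the 5 largest such differences in each direction. Each is given as the difference of log2 fold changes ± its standard error, then the Benjamini-Hochberg adjusted p. The effect at 2 h was above that at 0.5 h in YRO2 (6.95 ± 0.51, 6.8e-07), NQM1 (5.50 ± 0.40, 5.5e-07), ALD3 (5.22 ± 0.27, 2.6e-08), YDR034W-B (5.18 ± 0.94, 0.00105) and YGP1 (5.12 ± 0.23, 8.4e-09). It was below that at 0.5 h in YBL039C-A (-4.19 ± 0.93, 0.00387), SFG1 (-3.67 ± 0.47, 7.8e-05), HTA2 (-3.54 ± 0.18, 2.2e-08), YML089C (-3.52 ± 0.85, 0.00694) and HTB2 (-3.40 ± 0.20, 5.5e-08). The effect at 4 h was above that at 2 h in SPG4 (4.30 ± 0.81, 0.00432), YFR032C-B (3.16 ± 0.51, 0.00185), MMP1 (2.62 ± 0.39, 0.00112), YMR230W-A (2.57 ± 0.35, 8.4e-04) and SIP18 (2.55 ± 0.24, 1.6e-04), and below it in SML1 (-4.39 ± 1.12, 0.0206), YER053C-A (-4.14 ± 0.47, 2.5e-04), SIM1 (-3.70 ± 0.62, 0.00241), YDR210W (-3.63 ± 0.46, 5.1e-04) and YPR036W-A (-3.47 ± 0.83, 0.0158). In the last group SIM1 and YDR210W did not pass at 2 h itself (0.86 and 0.33), and YPR036W-A passed at 2 h with overlapping strains (31.4, 9.38 and 6.46 CPM in wild type and 23.5, 76.6 and 70.1 CPM in ZCZ01). SPG4, a protein of stationary phase, had log2 fold changes of 0.57, 0.79 and 5.10 at 0.5, 2 and 4 h. At 2 h itself the call of YPR036W-A was lost with no replicate block (1.83) and with experiments 2 and 3 summed (1.46). It was also lost without experiment 2 (1.33) and without experiment 3 (1.17). The differences between times were not checked gene by gene under the alternatives. With experiments 2 and 3 summed, the genes with a 4 h effect above and below that at 2 h numbered 10 and 43, in place of 388 and 389.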

How the results depend on the processing

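Calls were checked for 238 genes named in the text, which leave out CLB1, GLK1, SIC1 and the iron genes FRE4, MRS4, HMX1, CTH1 and ARN2. Of these, the genes that passed at 2 h and lost the call numbered 12 with no replicate block and 21 with experiments 2 and 3 summed. They numbered 0, 27 and 30 without experiment 1, 2 and 3, and 0 when a mean of 50 counts was required (202 of the 238 tested). They numbered 3 in DESeq2, 0 in limma, and 0 to 1 under RLE, upper quartile and total count scaling. None of these turned the sign of a gene that passed. The replicate block pairs the libraries of an experiment and time. Without that block 510 genes were higher and 474 lower by at least 2-fold, 744 and 890 with no fold minimum, and the effect at 2 h was above and below that at 0.5 h for 443 and 601 genes, and that at 4 h above and below that at 2 h for 99 and 138. With experiments 2 and 3 summed the same counts with no fold minimum were 640, 726, 377, 472, 10 and 43, where fewer replicates were available. Leaving out 1 experiment gave 438 to 766 genes higher and 434 to 560 lower by at least 2-fold, and 522 to 1519 and 646 to 1565 with no fold minimum. It gave 309 to 1022 and 430 to 1332 for 2 h above and below 0.5 h, and 7 to 1005 and 27 to 963 for 4 h above and below 2 h. Asking for a mean of 50 counts left 397 and 302 genes at 2-fold, since fewer genes were tested. When the times of the sample titles were used instead, 2 genes were higher and 0 lower at 2 h, with or without the fold minimum, and 0 differed between times in any direction. In edgeR, the tool run with those times, 341, 391, 88, 16, 7 and 1 genes had an unadjusted p under 0.05 for higher and lower at 2 h, 2 h above and below 0.5 h, and 4 h above and below 2 h. The titles gave 30, 120 and 240 min to all libraries of experiments 1, 2 and 3. The 2 h effect by the titles thus came from experiment 2 alone, whose library names give 0.5, 2 and 4 h. The cause of the loss of calls was not tested. PPZ1 then had a log2 fold change of 4.59 and did not pass, and the sign of BAS1 (0.017), NOP6 (0.098), TPS2 (-0.021) and YFR032C-B (0.90) turned. The PPZ1 value ran from 4.47 to 6.09 with 1 experiment left out. Depth limits genes with few counts in a library.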
